A study of Mus musculus with 12 samples.

Results

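Cytosolic NLR sensors are intracellular pattern receptors of innate immunity. The 9 genes described here are the NLR genes Nlrc3, Nod1, Nod2, Nlrx1, Nlrp3, Nlrp1b, Nlrc4 and Naip2, together with Pycard, which encodes the inflammasome adaptor ASC. They were found by matching their mouse symbols to the Ensembl IDs of the deposited count table, in which all 9 were present among 39017 genes. The set counts as selected on the measured cKO against WT differences, since it was proposed with these already known, among them the low level of Nlrc3 in the knockout. The values of its genes between the groups are therefore given as a description, without a p-value.

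The libraries hold microglial RNA bound to ribosomes, taken from spinal cords of C57BL/6 females in which experimental autoimmune encephalomyelitis (EAE), a model of multiple sclerosis, had been induced. A total of 6 libraries carried the genotype label Kdm6a cKO (cKO, replicates 1 to 6) and 6 the label wildtype (WT, replicates 7 to 12). All 12, the WT libraries included, were described as coming from Tmem119-Cre:RiboTag mice, in which Cre under the control of the microglial gene Tmem119 switches on a tagged ribosomal protein, so that transcripts being translated where Cre is active can be isolated. Kdm6a encodes an X-linked histone H3 demethylase. The sources used here do not state the age of the mice, the stage of EAE or whether each library came from 1 animal. The comparison addresses how loss of Kdm6a from microglia bears on their transcripts during EAE.

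NLR proteins carry a central nucleotide-binding domain and a leucine-rich repeat region, and sense microbial products or disturbances of the cell from within the cytosol. NLRP3, NLRP1B and NLRC4 assemble inflammasomes, platforms that activate caspase-1 for the release of interleukin-1 and interleukin-18 and for pyroptotic cell death, mostly through the adaptor ASC. NOD1 and NOD2 instead signal through the kinase RIPK2 to NF-kB, while NLRC3 and the mitochondrial NLRX1 are known mainly as brakes on innate signalling. In EAE, NLRP3 and ASC are among the inflammasome components known to contribute to disease.

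The sensors share the glycine-rich loop that grips the phosphates of the bound nucleotide, and its coding bases are set side by side here. The loop is glycine, 4 residues of any kind, glycine, lysine, and serine or threonine, and it was searched for in the longest complete coding sequence of each gene in the GENCODE M21 annotation (mm10). It occurred exactly 1 time in each of the 8 NLR genes and in their relatives Nlrp1a and Naip5, each time within 1 coding exon, and not in Pycard. The 24 bases that encode it are in capitals with 9 bases on each side, 5′ to 3′ on the coding strand.
Nlrc3 (chr16:3965016-3965057, minus strand): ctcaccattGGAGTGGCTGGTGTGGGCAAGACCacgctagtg
Nod1 (chr6:54944696-54944737, minus strand): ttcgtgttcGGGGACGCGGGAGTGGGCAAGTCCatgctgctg
Nod2 (chr8:88663937-88663978, plus strand): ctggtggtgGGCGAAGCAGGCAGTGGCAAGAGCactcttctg
Nlrx1 (chr9:44263950-44263991, minus strand): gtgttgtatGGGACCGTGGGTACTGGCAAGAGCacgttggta
Nlrp3 (chr11:59548253-59548294, plus strand): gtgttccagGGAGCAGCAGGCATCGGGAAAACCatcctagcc
Nlrp1b (chr11:71182575-71182616, minus strand): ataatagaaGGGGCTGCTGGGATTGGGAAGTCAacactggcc
Nlrp1a (chr11:71123976-71124017, minus strand): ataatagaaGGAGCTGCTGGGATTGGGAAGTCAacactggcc
Nlrc4 (chr17:74446850-74446891, minus strand): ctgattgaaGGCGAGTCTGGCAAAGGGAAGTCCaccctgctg
Naip2 (chr13:100161955-100161996, minus strand): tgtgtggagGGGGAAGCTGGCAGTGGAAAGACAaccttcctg
Naip5 (chr13:100223287-100223328, minus strand): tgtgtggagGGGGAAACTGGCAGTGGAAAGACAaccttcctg
Between any pair of the 8 members, 11 to 19 of the 24 loop bases were identical, with the highest number for Nod2 and Naip2 and the lowest for Nlrx1 and Nlrc4. The search itself fixed some residues of the loop, so part of this identity was set in advance. Such a short stretch does not give the order of relatedness. Nlrp1b and Nlrp1a shared 23 of the 24, as did Naip2 with Naip5. These neighbouring copies bear on the counts. Of the 50-base words in its annotated transcripts, Naip2 shared 19.1% with transcripts of other genes, Naip5 36.8% and Naip6 21.5%, whereas Nlrp1b shared 1.45%, Nlrc3 1.31%, Nlrx1 0.575%, and Nlrp3 and Pycard none. Values of Naip2, Naip5 and Naip6 are therefore uncertain as to how shared reads were assigned.

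Total counts per library ran from 19040115 in cKO 1 to 26296071 in WT 7. Levels are given as CPM, the usual depth-scaled count, with library totals adjusted by TMM. On this scale 3 counts were 0.109 to 0.157 CPM. Kdm6a, the targeted gene, stood at 1.59 to 4.50 CPM in cKO and 3.35 to 6.19 CPM in WT, and its log2 fold change of -0.70 ± 0.25 (SE, n = 6 each) did not pass in the quasi-likelihood test of edgeR (adjusted p = 0.117). The groups overlapped because cKO 2 lay within the WT range, so the labelled deletion was not seen in the library labelled cKO 2. These counts cover the whole gene and not the deleted part alone. With the CNS marker component described next as a covariate the fold change of Kdm6a was -1.21, and without cKO 1, 2 and 4 it was -1.17, and it was called in both. The summed level of 12 microglial markers was 26690 to 33590 CPM in cKO and 27540 to 30740 CPM in WT, with all 12 detected. Much of this sum was C1qa, at 8792 to 16950 CPM in cKO and 12730 to 15780 CPM in WT. Of the 12, 2 were called higher in cKO and 0 lower. These were Siglech (log2 fold change 1.72, adjusted p = 0.00119, edgeR) and Olfml3 (0.61, adjusted p = 0.0312, edgeR). The microglial markers were thus not all even between the groups. A central nervous system (CNS) marker component, the first principal component of 47 neuronal, glial, Schwann, vascular and ependymal marker genes in units of its SD, was 1.32 in cKO 1, 1.97 in cKO 2 and 1.45 in cKO 4, while none of the other 9 libraries exceeded -0.11. In bulk RNA of this kind, fewer cells of a type and less RNA per cell cannot be told apart.

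A single member, Nlrc3, differed past the threshold between the groups. Of the 9 members, 8 passed the filter on low counts and 1 of these 8 was called at an adjusted p under 0.05 in the fit over all genes, where 5.87% of the 15015 genes tested were called. That 1 was lower in cKO, a direction called in 3.43% of all genes, against 2.44% called higher. Since the members were chosen with this contrast known, nothing is read from this share. Log2 fold changes were below 0 in 6 of the 8 members, with a median of -0.34, against 45.4% of all genes tested and a median of 0.03.

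**Figure D1:**
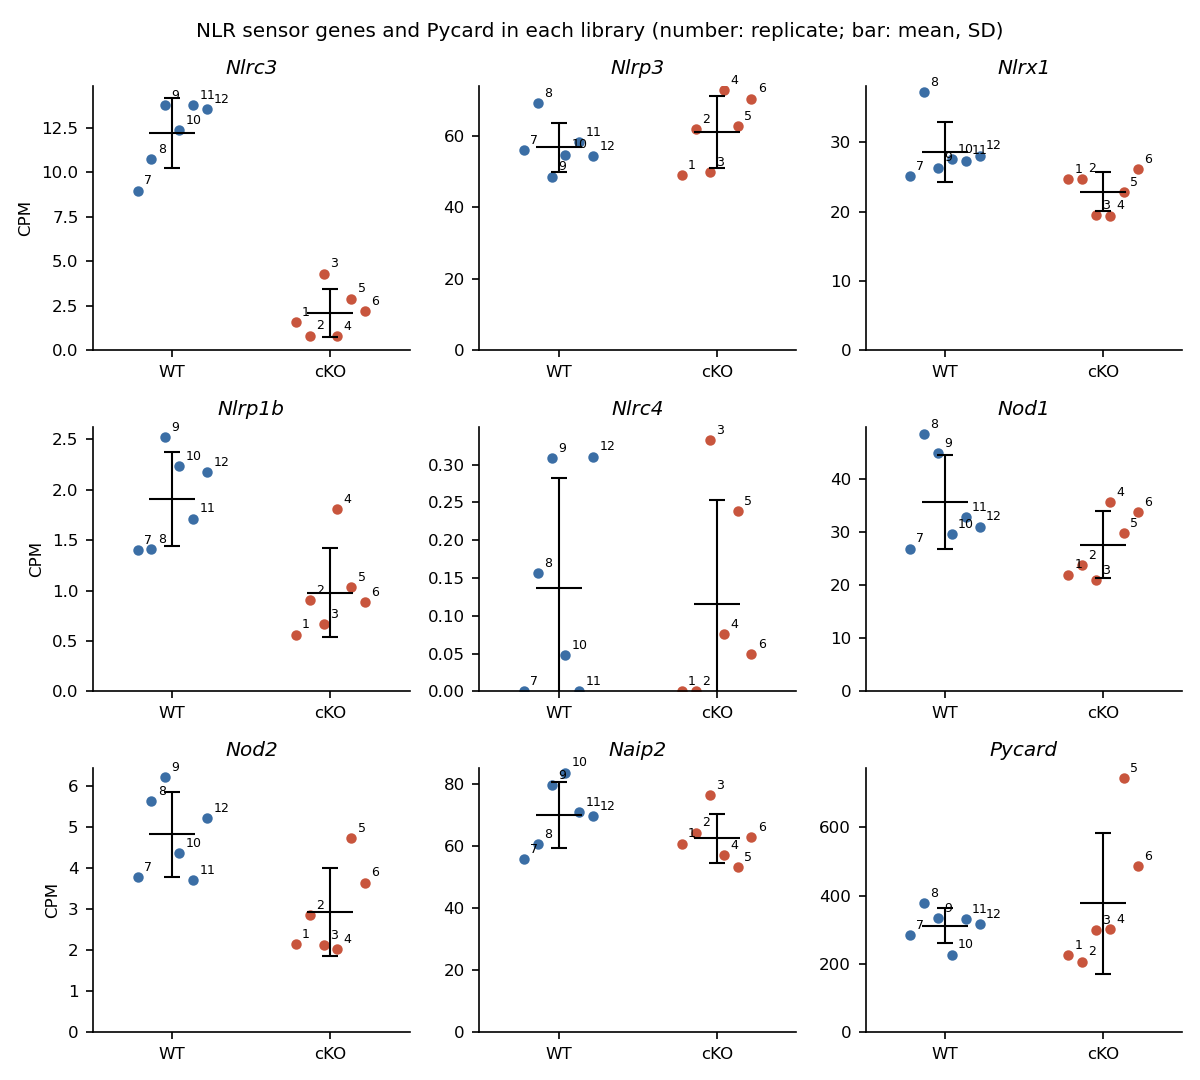
CPM of each of the 9 members in every library, each panel with its own linear axis from 0; points are libraries numbered by replicate, and the bar is the mean with its SD (n = 6 each, cut off at 0 for Nlrc4). Only for Nlrc3 do all cKO libraries, at most 4.32 CPM, lie below all WT libraries, at least 8.97 CPM.

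Nlrc3, which in mice restrains signalling through STING and TRAF6, was markedly lower in the Kdm6a cKO libraries. The gene lies on chromosome 16 (chr16:3945007-3976632, minus strand, mm10). In WT its level ran from 8.97 CPM in WT 7 through a median of 12.96 CPM to 13.8 CPM in WT 9 and WT 11. In cKO it ran from 0.792 CPM in cKO 4 through a median of 1.91 CPM to 4.32 CPM in cKO 3. The groups did not overlap, and the highest cKO library lay below the lowest WT library. The mean fell from 12.2 ± 1.98 CPM to 2.11 ± 1.35 CPM (SD, n = 6 each), so that cKO held 17.3% of the WT mean. The log2 fold change was -2.54 ± 0.35 (SE). The counts behind these levels were 21 to 91 per cKO library and 206 to 290 per WT library. Groups did not overlap in 4.13% of all genes tested (lower in cKO in 2.80% and higher in 1.33%), which is the background for this 1 member.

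Spread within the knockout was wide for Nlrc3. The highest cKO library stood 5.45-fold above the lowest, against 1.54-fold in WT, and the coefficient of variation was 64.0% in cKO and 16.2% in WT. Over all genes tested the median coefficient of variation was 24.4% in cKO and 14.1% in WT. The lowest Nlrc3 levels were those of cKO 1, 2 and 4 (1.60, 0.83 and 0.79 CPM), the libraries with the highest CNS marker component. In cKO 3, 5 and 6 the component was -0.11, -0.82 and -0.90, within or close to the WT range of -0.84 to -0.21. Nlrc3 stood at 4.32, 2.90 and 2.22 CPM in these libraries, below every WT library. Without cKO 2 alone the log2 fold change of Nlrc3 was -2.37, without cKO 1, 2 and 4 it was -1.93, and with the component in the model it was -2.11. High values of the component occurred only in cKO libraries, so these fits do not separate its part from the genotype. That part was not tested.

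None of the 6 nearest genes tested around Nlrc3 was called. These are Cluap1, Gm15537 and Gm15539 at lower coordinates and Slx4, Dnase1 and Trap1 at higher ones, at distances of 2.47 to 63.3 kilobases. The log2 fold change of the DNA repair scaffold gene Slx4, 2.47 kilobases upstream of Nlrc3, was 0.07 ± 0.11 (adjusted p = 0.753, edgeR), and that of the ciliary gene Cluap1, 3.86 kilobases downstream, was -0.18 ± 0.10 (adjusted p = 0.324, edgeR). The other 4 lay between -0.39 and 0.12, with adjusted p from 0.475 to 0.973 (edgeR).

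Nlrc3 is known to be expressed in T cells as well as in myeloid cells, so markers of other cells are set beside it. The summed level of 12 T cell markers was 5.03 to 11.1 CPM in cKO and 6.67 to 14.5 CPM in WT, so the groups overlapped, and none of the 5 that were tested was called. All 12 were detected, with Cd3e at 0.141 to 0.875 CPM in cKO and 0.412 to 1.29 CPM in WT. Of the 12, 10 had a lower mean in cKO, among them Cd4 (0.809 against 1.68 CPM) and Cd28 (0.193 against 0.685 CPM). The T cell sums were 5.03, 9.51, 7.88, 7.47, 11.1 and 8.35 CPM in cKO 1 to 6, and 6.67, 7.36, 10.3, 12.7, 14.5 and 12.6 CPM in WT 7 to 12. Within WT, the libraries with the lowest sums, WT 7 and WT 8, also had the lowest Nlrc3 (8.97 and 10.8 CPM). The part of T cell RNA in the result was not tested.

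Among the other marker lists, the sums of border macrophages and NK cells were apart between the groups in the direction of Nlrc3. The summed level of 8 border macrophage markers was 6.06 to 36.2 CPM in cKO and 40.9 to 82.3 CPM in WT, without overlap, and 1 of the 4 tested (Ms4a7) was called, lower in cKO. In WT most of that sum was Ms4a7, a membrane protein of macrophages, at 37.3 to 72.1 CPM against 1.92 to 31.4 CPM in cKO (log2 fold change -2.03, adjusted p = 0.0346, edgeR). Without it the other 7 markers summed to 3.996 to 7.96 CPM in cKO and 3.66 to 10.2 CPM in WT. Of the defining markers, Cd163, Lyve1 and Cd209f were at or near 0, at most 0.198 CPM in any library. Mrc1, Pf4 and Folr2 were detected in every library, with Folr2 at 1.11 to 4.89 CPM in cKO and 1.81 to 7.28 CPM in WT. Of the 8 markers, 6 had a lower mean in cKO, among them Mrc1, Pf4 and Folr2 (2.74 against 4.32 CPM for Folr2). Cd163 and Cd209f had a higher mean in cKO. Within cKO, the lowest border macrophage sums (cKO 2 and cKO 4) and the highest (cKO 3) belonged to the libraries with the lowest and the highest Nlrc3. That order was not seen without Ms4a7: the other 7 markers were lowest in cKO 1 (3.996 CPM) and highest in cKO 6 (7.96 CPM), with cKO 3 at 4.79 CPM. Within WT the lowest full sum was that of WT 8, while Nlrc3 was lowest in WT 7. The 6 NK cell markers summed to 0.237 to 0.517 CPM in cKO and 0.783 to 2.57 CPM in WT, without overlap. In WT most of this was Klrb1c, an NK cell receptor (log2 fold change -3.05, adjusted p = 0.000459, edgeR), and the other 5 summed to 0.142 to 0.278 CPM and 0.104 to 0.476 CPM. In the other direction, 6 B and plasma cell markers summed to 334.6 to 670.5 CPM in cKO and 193.6 to 284 CPM in WT, and 1 of the 2 tested, Ighm, was called higher. Ighm made up most of this sum, and the other 5 summed to 11.2 to 20.9 CPM and 7.94 to 14.4 CPM, with overlap. The part of these cell types in the result was not tested.

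**Figure D2:**
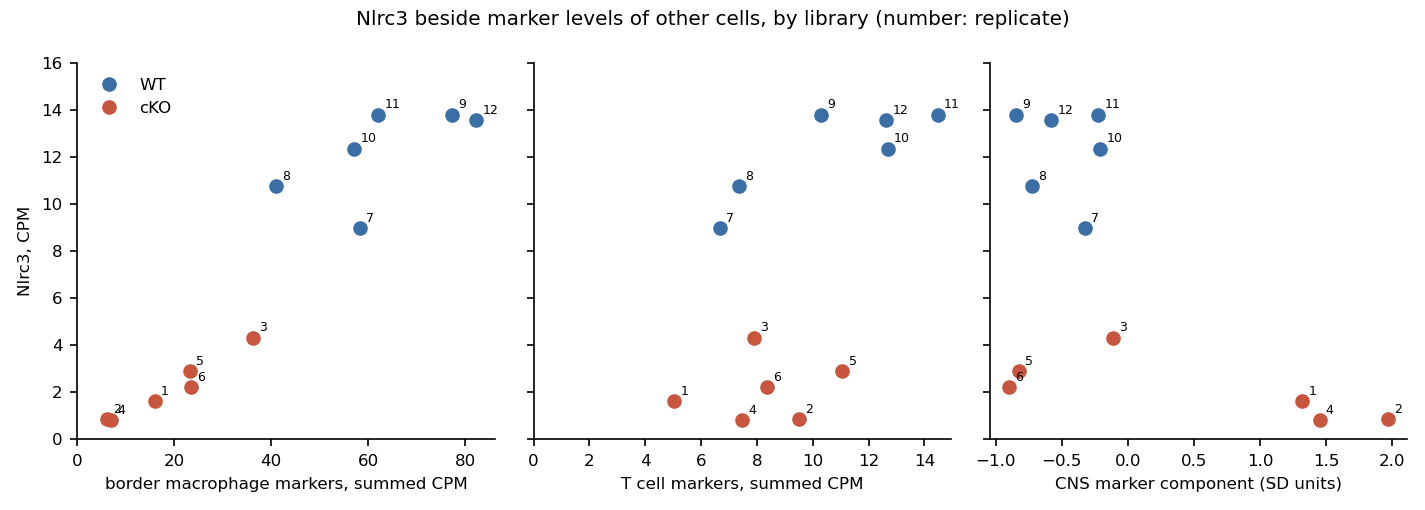
CPM of Nlrc3 on the vertical axis against the summed CPM of border macrophage markers (left), the summed CPM of T cell markers (middle) and the CNS marker component in SD units (right), with points as libraries numbered by replicate. Border macrophage sums of cKO and WT do not overlap (at most 36.2 and at least 40.9 CPM), though without Ms4a7 they do. T cell sums overlap, and cKO 1, 2 and 4 stand apart on the component.

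The genes whose pattern over the 12 libraries was most like that of Nlrc3 were Lrrc27, P2ry2, Lrguk, Hpse and Cd22. Likeness was the root-mean-square difference of log2 CPM after each gene was centred on its own mean, over 13750 genes whose mean reached 1 CPM. It was 0.26 for Lrrc27, a leucine-rich repeat gene, 0.32 for P2ry2, a receptor for extracellular nucleotides, 0.43 for Lrguk, 0.44 for the heparanase gene Hpse and 0.45 for Cd22, an inhibitory sialic acid receptor. The median over all genes compared was 1.505, close to the SD of Nlrc3 itself over the libraries (1.554). All 5 lie on other chromosomes than Nlrc3, and their log2 fold changes ran from -3.03 for P2ry2 to -1.77 for Cd22. Since likeness was taken over both groups, it picks genes that are lower in cKO, and these fold changes follow from that choice.

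Of the other NLR gene linked to restraint of signalling, Nlrx1, the levels in cKO were low but not apart from WT. Nlrx1 (chr9:44252717-44268599, minus strand) encodes a mitochondrial protein that interacts with the antiviral adaptor MAVS. Its level ran from 19.4 through a median of 23.7 to 26.1 CPM in cKO and from 25.1 through 27.4 to 37.2 CPM in WT. A total of 5 cKO libraries lay below every WT library, and cKO 6 lay within the WT range. The log2 fold change was -0.32 ± 0.12 (SE, n = 6 each) and was not called. Gm10686, on the other strand, shares 683 bases of exon with Nlrx1 and is not in the table, and no source used here states the strand setting of the counting.

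NOD1 and NOD2, which detect fragments of bacterial peptidoglycan, were read at very different levels. Nod1 (chr6:54923949-54972612, minus strand) ran from 21.0 through a median of 26.7 to 35.6 CPM in cKO and from 26.8 through 31.9 to 48.4 CPM in WT. The groups overlapped, with WT 8 and WT 9 the highest of all. The log2 fold change of Nod1 was -0.36 ± 0.18 (SE, n = 6 each) and was not called. Nod2 (chr8:88647315-88688474, plus strand), the receptor for muramyl dipeptide, ran from 2.04 through a median of 2.51 to 4.73 CPM in cKO and from 3.71 through 4.80 to 6.23 CPM in WT. All cKO libraries except cKO 5 lay below every WT library. Its log2 fold change was -0.72 ± 0.23 (SE, n = 6 each), which was not called, but was called without cKO 5 (-0.91) and by DESeq2. Fitted with the CNS marker component as a covariate it was -0.45, and without cKO 1, 2 and 4 it was -0.43. Over all genes, 2818 were called without cKO 5 and 1843 by DESeq2, against 882 in the main fit. Per kilobase of exon, the level of Nod1 stood above that of Nod2 by a ratio of 5.86 to 8.73 in WT and 6.21 to 17.3 in cKO, highest in cKO 4.

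Nlrp3, the sensor of membrane damage and potassium loss, had overlapping levels in cKO and WT libraries and was not called. Nlrp3 (chr11:59541568-59566956, plus strand) ran from 48.9 through a median of 62.2 to 72.6 CPM in cKO and from 48.5 through 55.3 to 69.1 CPM in WT. The ranges lay almost on top of each other, with cKO 4 and cKO 6 just above the highest WT library. The log2 fold change was 0.10 ± 0.12 (SE, n = 6 each), and over 18 alternative fits it ran from 0.04 to 0.17. The coefficient of variation was 16.4% in cKO and 12.1% in WT. Over the 12 libraries, the genes most like it in pattern were Taco1, Lair1, Zfand3, Ralb and Tspan14, with root-mean-square differences of 0.10 to 0.13, against a median of 0.35 over the 13750 genes compared.

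Pycard, the adaptor through which NLRP3 recruits caspase-1, had the highest level of the members and was widely spread within the knockout, with a coefficient of variation of 54.4% in cKO and 16.5% in WT. The gene lies on chromosome 7 (chr7:127989708-127993867, minus strand). In WT it ran from 227.6 through a median of 323.7 to 378 CPM. In cKO it stood at 226, 207, 299, 302, 744 and 486 CPM in replicates 1 to 6. Thus cKO 1 and cKO 2 lay just below every WT library, cKO 3 and cKO 4 within the WT range, and cKO 5 and cKO 6 above all WT libraries. The mean was 377 ± 205 CPM in cKO and 312 ± 51.4 CPM in WT (SD, n = 6 each), and the log2 fold change of 0.27 ± 0.28 (SE) was not called. Without cKO 5 the fold change turned to -0.04. Fitted with the CNS marker component as a covariate it was 0.66 and was called (1069 genes called in all, against 882). Without cKO 1, 2 and 4 the fold change was 0.73 and was not called. The group mean of Pycard thus rested on which libraries were counted. Of the 8 monocyte markers, all were detected and none of the 3 tested was called. Their sum, 155 to 1589 CPM in cKO and 228.2 to 693.4 CPM in WT, was nearly all Fn1, the fibronectin gene, which other cell types also express. Fn1 stood at 1178, 1582 and 1171 CPM in cKO 3, 5 and 6 and at 445, 235 and 149.9 CPM in cKO 1, 2 and 4. The other 7, with the defining markers Ccr2 (at most 0.67 CPM) and Ly6c2 (at most 1.63 CPM), summed to 1.89 to 7.64 CPM in cKO and 2.31 to 7.42 CPM in WT, highest in cKO 5, and their part in the Pycard levels was not tested. Gm45205, on the other strand, shares 485 bases of exon with Pycard and is not in the table.

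Set against Nlrp3 within each library, the Pycard level per kilobase was 4.45 to 7.36 times as high in WT. In cKO the ratio was 4.94, 3.56, 6.41, 4.43, 12.7 and 7.37 in replicates 1 to 6, so cKO 5 stood above the others. These ratios rest on the annotated exon length of Pycard, 3800 bases, of which the coding sequence is 579 bases. A shorter transcript would raise all of them alike. The genes closest to Pycard in pattern were the proteasome subunit genes Psmb5 and Psma5, the ribonucleoprotein gene Nhp2, Ppil1, and Cox5a, a subunit of cytochrome c oxidase. Their root-mean-square differences were 0.11 to 0.14, against a median of 0.57 over all genes compared.

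Nlrp1b, the gene of an inflammasome sensor, was scarce in all libraries. Nlrp1b (chr11:71153102-71230733, minus strand) ran from 0.564 through a median of 0.898 to 1.81 CPM in cKO and from 1.40 through 1.94 to 2.52 CPM in WT. Raw counts were 12 to 48 and 27 to 49 per library. All cKO libraries except cKO 4 lay below every WT library. The log2 fold change was -0.95 ± 0.28 (SE, n = 6 each) and was not called. It was called without cKO 4 (-1.22), without cKO 5 (-0.96), without cKO 1, 2 and 4 (-1.11) and by DESeq2. In that order these fits called 545, 2818, 557 and 1843 genes in all, against 882 in the main fit. Nlrp1a, the neighbour and relative of Nlrp1b, lies 8.40 kilobases away. It stood at 2.63 to 7.58 CPM in cKO and 3.75 to 7.32 CPM in WT, a difference of -0.15 ± 0.26 on the log2 scale (adjusted p = 0.799, edgeR). Per kilobase, Nlrp1a stood above Nlrp1b in all 12 libraries, by a ratio of 3.50 to 6.73 in WT and 3.84 to 11.6 in cKO. The pseudogene Nlrp1c-ps of the same cluster had 1 to 8 counts per library.

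Of the NAIP and NLRC4 pair, the receptor was abundant and its partner close to undetected. NAIP2 binds the inner rod protein of bacterial type III secretion systems and then engages NLRC4, which builds the inflammasome. Naip2 (chr13:100144063-100202092, minus strand) ran from 53.3 through a median of 61.9 to 76.5 CPM in cKO and from 55.8 through 70.4 to 83.7 CPM in WT. The groups overlapped over most of their range, and the log2 fold change of -0.17 ± 0.12 (SE, n = 6 each) was not called. Nlrc4 (chr17:74425438-74459142, minus strand) had 0 to 7 counts in the cKO libraries and 0 to 6 in the WT libraries, 16 in all in each group, and did not pass the filter. It had 0 counts in cKO 1, cKO 2, WT 7 and WT 11, where a count of 0 allows up to 3 counts. A difference in Nlrc4 was not detectable at this depth.

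The flagellin receptors Naip5 and Naip6 lie beside Naip2 in the same cluster. Naip5 stood at 15.9 to 18.9 CPM in cKO and 18.3 to 24.6 CPM in WT, and 5 of the cKO libraries lay below every WT library. Its log2 fold change was -0.27 ± 0.09 (SE, n = 6 each), and it did not pass in edgeR (adjusted p = 0.0904). DESeq2 called Naip5, with 1843 genes called in all, against 882 in edgeR. Naip6 stood at 2.70 to 5.73 CPM and 2.92 to 4.75 CPM (log2 fold change 0.08 ± 0.19, adjusted p = 0.866, edgeR), and Naip1 had 0 to 6 counts per library. Per kilobase, the level of Naip2 was 2.81 to 4.16 times that of Naip5 in WT and 3.36 to 4.67 times in cKO.

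**Figure D3:**
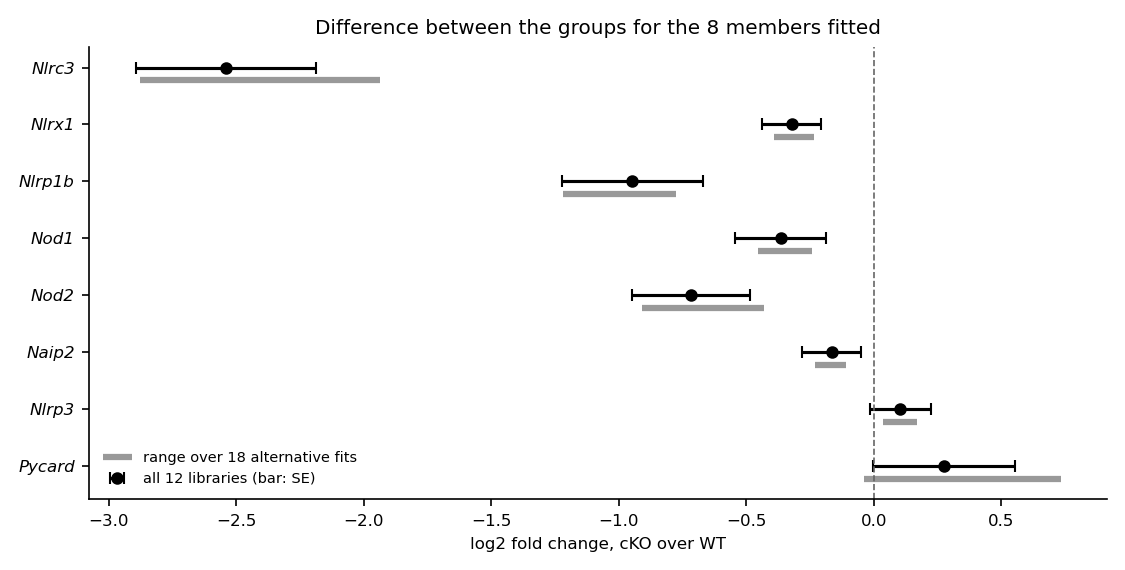
Log2 fold change of cKO over WT for the 8 members that passed the filter, with its SE (black, all 12 libraries, n = 6 each) and the range over 18 alternative fits (grey). Nlrc3 stays between -2.88 and -1.93 in all 18, while the range of Pycard, from -0.04 to 0.73, crosses 0.

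Compared per kilobase of annotated exon, Pycard stood far above the sensors in WT, followed by Naip2 and Nlrp3, then Nod1, Nlrx1, Nlrc3, Nod2, Nlrp1b and Nlrc4. The WT means on this scale were 82.0 ± 13.5 CPM per kilobase for Pycard, 14.5 ± 2.20 for Naip2 and 14.0 ± 1.69 for Nlrp3 (SD, n = 6). Naip2 was above Nlrp3 in 4 of 6 WT libraries and their ranges overlapped, so the order of these neighbours was not larger than their spread. The level per kilobase of Nod1 (7.01 ± 1.74) was above that of Nlrx1 (4.97 ± 0.76) in 6 of 6 WT libraries, although the ranges over libraries overlapped. Every other pair of neighbours was apart, with Nlrc3 at 1.73 ± 0.28, Nod2 at 0.963 ± 0.206, Nlrp1b at 0.303 ± 0.074 and Nlrc4 at 0.0286 ± 0.0302 CPM per kilobase. The order rests on annotated lengths: with the longest transcript as length the levels of Nlrx1, Nlrc3 and Nlrp1b were 7.79, 2.26 and 0.442, in the same order. For Pycard both lengths were 3800 bases, with a coding sequence of 579 bases, so this check could not vary its length. A shorter transcript would put Pycard higher still.

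In cKO the order changed at Nlrc3. Its level per kilobase of 0.299 ± 0.191 put it in place 7, below Nod2 (0.585 ± 0.215) in 5 of 6 libraries, where in WT it was in place 6 and above Nod2 in 6 of 6. In cKO the range of Nlrc3 overlapped those of Nod2 and Nlrp1b, and Nlrc3 was above Nlrp1b in 4 of 6 libraries. Nlrp3 (15.0 ± 2.46) and Naip2 (12.9 ± 1.64) also changed places, with Nlrp3 higher in 4 of 6 cKO libraries and overlapping ranges. Of the summed per-kilobase level of the 8 NLR genes, Naip2 took 33.3% ± 4.51 in WT and 33.8% ± 5.53 in cKO, and Nlrp3 took 32.3% ± 3.78 and 39.0% ± 3.83. Nlrc3 took 3.98% ± 0.59 in WT and 0.789% ± 0.522 in cKO. The sum itself was 37.2 to 48.5 CPM per kilobase in WT and 34.0 to 42.7 in cKO, with overlap.

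**Figure D4:**
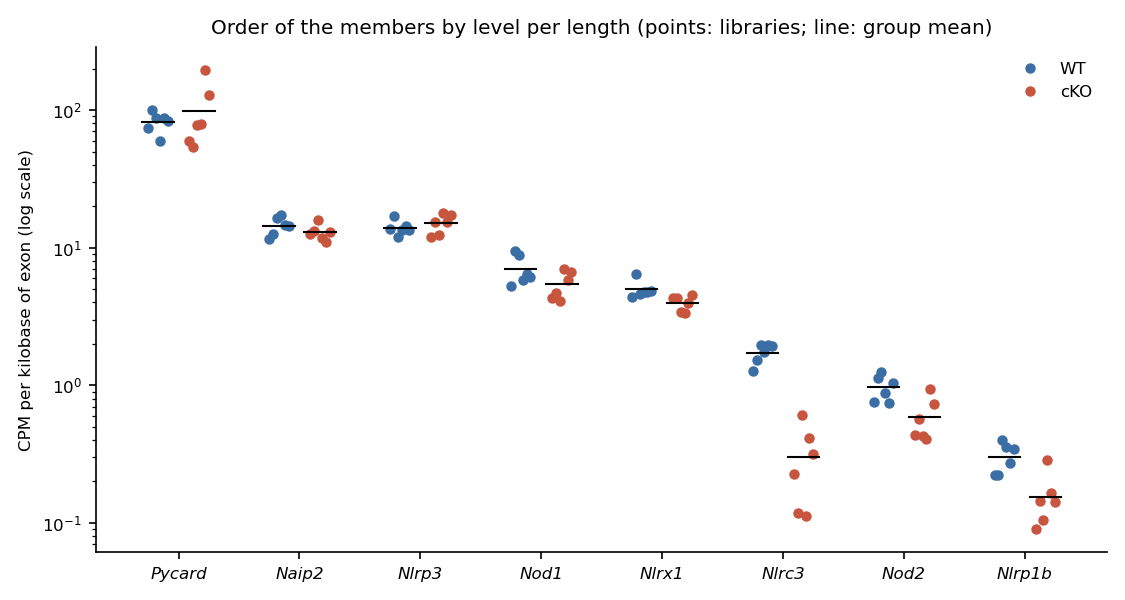
Level per kilobase of exon on a log axis for 8 members in order of their WT mean, with points as libraries and lines as group means (Nlrc4, with libraries at 0, is left out). Pycard stands at the top, and at Nlrc3 alone the points of the groups are apart.

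Around the sensors, 4 lists of pathway genes were compared in the same fit, and most of their genes did not pass. Of 21 tested genes of inflammasome partners and output, 2 fell and 19 did not pass (median log2 fold change -0.10, against 0.03 over all genes). Over all genes tested, 5.87% were called and 3.43% were called lower in cKO. All cKO libraries lay below all WT libraries in 2.80%. Nothing is read from the counts of called genes in the lists. The 2 that fell were Pstpip1 and Ninj1. Pstpip1, a cytoskeletal adaptor that binds pyrin, fell from 11.2 to 27.0 CPM in WT to 1.61 to 12.05 CPM in cKO, with overlap only through cKO 5 (log2 fold change -2.12 ± 0.41, SE, n = 6 each, adjusted p = 0.00869, edgeR). Without cKO 1, 2 and 4 it did not pass (-1.64). It was called in the other 17 alternative fits. Ninj1, which ruptures the plasma membrane in lytic cell death, fell from 164 ± 27.4 to 77.6 ± 26.9 CPM (SD), with no overlap between the groups (log2 fold change -1.08 ± 0.21, adjusted p = 0.00914, edgeR). It was called in all 18 alternative fits, at -0.68 without cKO 1, 2 and 4 and -0.78 once the CNS marker component was a covariate. The lists were chosen with earlier results of these data known. Alternative fits reuse the same libraries, so the repeated calls of Pstpip1 and Ninj1 add no separate evidence. Border macrophage marker sums, as given for Nlrc3, also lay lower in cKO beside these falls, though without Ms4a7 the sums overlapped. The part of these cells was not tested.

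Other inflammasome genes had values that did not pass in edgeR. For P2rx7, the ATP-gated channel upstream of NLRP3, the log2 fold change was -0.37 ± 0.12 (adjusted p = 0.0780), and DESeq2 and the fit without cKO 5 called it. Those fits called 1843 and 2818 genes in all, against 882 in the main fit. Il1b stood at 9.78, 8.998, 18.8, 12.4, 70.6 and 50.4 CPM in cKO 1 to 6 and at 8.74 to 17.6 CPM in WT (1.26 ± 0.48, adjusted p = 0.135, edgeR). Like Pycard, Il1b was above every WT library in cKO 5 and cKO 6, and in cKO 3 as well. Its log2 fold change was 0.75 without cKO 5 and 1.01 without cKO 6, neither of them called. It was called with the CNS marker component (1.82), without cKO 1, 2 and 4 (1.996) and by DESeq2. Fn1 was also highest in cKO 3, 5 and 6. Casp1, the effector protease, stood at 26.5 ± 3.86 CPM in cKO and 23.0 ± 3.08 CPM in WT (log2 fold change 0.20 ± 0.12, adjusted p = 0.334, edgeR). For Gsdmd, the pore-forming gasdermin, the change was -0.30 ± 0.20 on the log2 scale (adjusted p = 0.402, edgeR).

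None of the 22 tested genes of NOD1 and NOD2 signalling passed, where 5.87% of all genes tested were called. Of the 22, 15 had log2 fold changes below 0 (median -0.08), against 45.4% of all genes tested (median 0.03). The kinase gene Ripk2 stood at -0.27 ± 0.10 (adjusted p = 0.120) and Ikbkb, a kinase of the NF-kB pathway, at -0.23 ± 0.08 (adjusted p = 0.0834), both in edgeR. Without cKO 5 both were called, in a fit with 2818 genes called in all, against 882 in the main fit. DESeq2 called Ikbkb as well, with 1843 genes called in all. Ikbkb stood at 60.4 to 74.8 CPM in cKO and 75.8 to 85.6 CPM in WT, without overlap. Groups were apart in this direction in 2.80% of all genes tested. The values of Tab1 (-0.24 ± 0.09, adjusted p = 0.150) and Slc15a4 (-0.30 ± 0.14, adjusted p = 0.217), an adaptor subunit of a kinase complex and a transporter, did not pass in edgeR either. Slc15a4 was lowest in cKO 5 (42.2 CPM, against 65.6 to 84.8 CPM in the other cKO libraries), and without cKO 5 its value was -0.19. Of 16 partners of NLRC3 and NLRX1, none passed, and the median was -0.04. The RNA sensor gene Ddx58 stood at -0.41 ± 0.14 (adjusted p = 0.0857), Mavs at -0.23 ± 0.08 (adjusted p = 0.109) and Tmem173, which encodes STING, at 0.10 ± 0.14 (adjusted p = 0.753, edgeR). Of 23 other NLR genes, 6 were tested and none passed. Nlrc5, a regulator of MHC class I genes, stood at 43.2 ± 13.1 CPM in cKO and 43.4 ± 11.9 CPM in WT (SD). For Ciita, the regulator of MHC class II genes, the difference on the log2 scale was 0.25 ± 0.40 (adjusted p = 0.773, edgeR). Nwd1 stood at 0.756 to 7.47 CPM in cKO, highest in cKO 2, 1 and 4, and at 1.29 to 2.04 CPM in WT (1.05 ± 0.43, adjusted p = 0.154, edgeR). Those 3 libraries are the ones with the highest CNS marker component. With the component as a covariate the log2 fold change of Nwd1 was -0.065, and without cKO 1, 2 and 4 it was -0.14. Only cKO libraries had a high component, so these fits do not separate its part from the genotype.

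**Figure D5:**
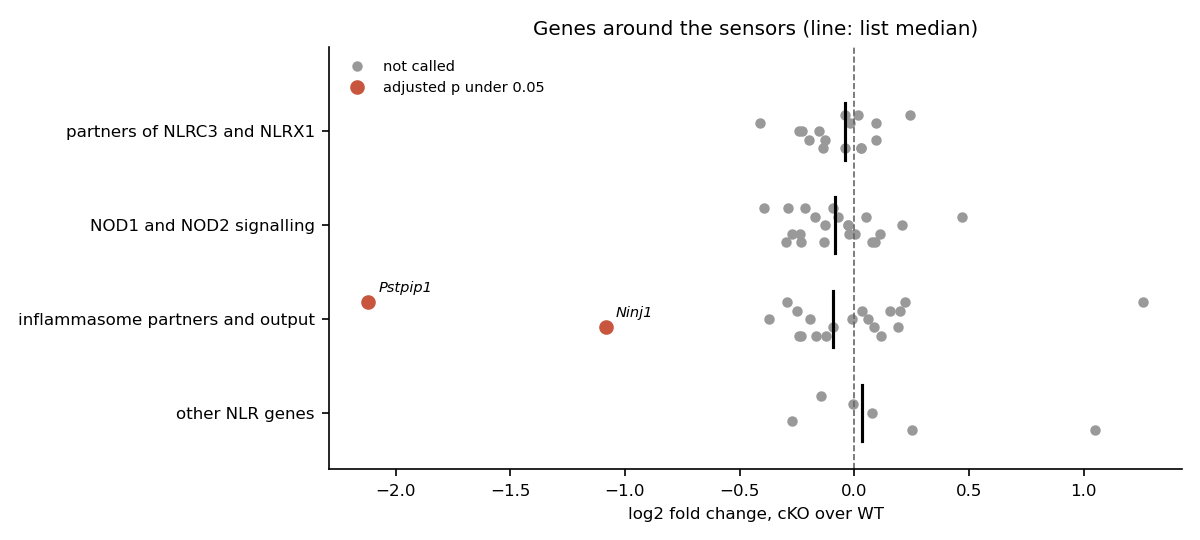
Log2 fold change of cKO over WT for each tested gene of 4 pathway lists, with the list median as a line and genes past the threshold in red (vertical scatter has no meaning). The 2 called genes, Pstpip1 at -2.12 and Ninj1 at -1.08, belong to the inflammasome list.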

How the data were processed

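Per the labels' protocols, RNA came from a Direct-zol kit and was turned into libraries by a KAPA stranded mRNA kit. Per the submitters' processing notes, bcl2fastq 2.17, FastQC, Trimmomatic and mm10 were used; the aligner, counter, strand setting and annotation release stand in no source used here. The authors deposited raw counts, whole numbers for 39017 Ensembl IDs, 1 column per library, of which 37607 had a symbol in GENCODE M21. All pairs of libraries differed beyond sampling noise (chi-square per degree of freedom at least 22.8).

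Genes were filtered with filterByExpr (15015 left), scaled by TMM and tested by quasi-likelihood in edgeR 4.0.16 (robust, R 4.3.3), with Benjamini-Hochberg adjusted p under 0.05 as called. The SE was taken as the absolute log2 fold change over the root of the F statistic. The test was run on simulated data first. The labels do not say that libraries are separate animals, so that each p-value reflects only the scatter of these libraries, which may be technical. The depth floor of 3 counts speaks of counting error alone, because PCR copies were not told apart by molecular identifiers.

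The members and lists were chosen with earlier results of these data known. The text names the members, their close relatives, Kdm6a, up to 4 genes of smallest p per pathway list and the 5 nearest patterns of Nlrc3, Nlrp3 and Pycard. Casp1, Gsdmd, Tmem173, Nlrc5, the genomic neighbours and the markers given by name were added after their values could be seen. Log2 CPM used a prior count of 2. The loop sequence of 1 further relative is not reported here. Alternatives were RLE scaling, no filter, DESeq2 1.42.0, the CNS marker component, and fits without single or several libraries; all were planned except the fit without cKO 1, 2 and 4.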

Additional observations from a re-analysis of the deposited data

Results flagged for a closer look

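The level of Nlrx1 in WT 8, 37.2 CPM, stood apart from the other 5 WT libraries (at most 28.1 CPM). The gap was 0.753 of the group's whole range, above Dixon's critical value for 6 samples. It was the only such value among 20 groups of 6 libraries examined for the 9 members and Kdm6a, where chance flags about 1 in 20. Without WT 8 the log2 fold change of Nlrx1 was -0.23.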

How the results depend on the processing

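No paired analysis was possible because the groups share no replicate numbers. Nlrc3 was called in all 18 alternative fits (log2 fold change from -2.88 to -1.93). These fits reuse the libraries and the contrast known when the set was proposed, so the calls add no separate evidence. Over all genes, 882 were called. That count was 1843 by DESeq2 and 1069 with the CNS marker component. It was 416 without cKO 1 and cKO 2, and 557 without cKO 1, 2 and 4 (added after the data were seen). Without single libraries it ran from 460 to 2818. It was 2818 without cKO 5, 1410 without cKO 6, and 460 to 575 without cKO 1, cKO 4, WT 8, WT 9, WT 11 or WT 12. Members called were 3 by DESeq2, 2 with the CNS marker component, 2 without cKO 1, 2 and 4, and 1 to 3 without single libraries. By DESeq2, 1 of the other NLR genes, 4 inflammasome genes, 1 of the NOD signalling genes and 2 partners of NLRC3 and NLRX1 were called, and with the component 1 such partner. Without single libraries these 4 counts ran from 0 to 1, 2 to 6, 0 to 3 and 0 to 1, each highest without cKO 5. The sign turned for Pycard without cKO 5 (-0.039, up to 0.40 without single libraries). For Naip6 it turned with the component (-0.17), without cKO 2 (-0.012), WT 7 (-0.014, up to 0.18 without single libraries), cKO 1 and 2 (-0.065) or cKO 1, 2 and 4 (-0.14). It turned for Nwd1 with the component (-0.065) and without cKO 1, 2 and 4 (-0.14), and for Ciita without cKO 6 (-0.037, up to 0.55 without single libraries). Pstpip1 lost its call without cKO 1, 2 and 4 (-1.645). The cause of these changes was not tested. Depth limits Nlrc4 and Nlrp1b.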
